A study of Mus musculus with 6 samples.

Results

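MHC class II genes were followed in the adult mouse cerebral cortex, in 6 libraries of polyadenylated RNA. The members were listed by name, with earlier results of these data known, so their values are not a blind draw. They are the chains H2-Aa, H2-Ab1 and H2-Eb1, the invariant chain Cd74, the peptide editor subunits H2-DMa and H2-DMb1, and the class II transactivator Ciita. All 7 were found among the 55450 gene identifiers of the files, and all 7 passed the filter on low counts that left 27939 genes for testing. The 3 heterozygous libraries came from cortex labelled Setd5 heterozygous and the 3 control libraries from cortex labelled wildtype. Setd5 encodes a SET-domain chromatin protein. The labels state neither which part of the gene was altered nor the strain, sex or exact age. They also leave unsaid whether each library was made from its own animal, so p-values here rest on library-to-library spread, which may be technical.

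MHC class II molecules are alpha-beta pairs on the cell surface that show peptides from engulfed proteins to CD4+ T cells. The invariant chain holds the pair together and shields its groove until the pair reaches the endosome, where cathepsins trim the chain and the DM molecule exchanges its remnant for peptide. In the healthy brain class II protein is known mainly from macrophages and dendritic cells of the meninges, the vessel surroundings and the choroid plexus, with little on resting microglia. Ciita binds no DNA itself but joins RFX, NF-Y and CREB proteins on a shared promoter module, in which an X box lies upstream of a Y box.

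That module is shown first, for the class II genes whose promoter sequence was available. RefSeq promoters of GRCm38.p6 (250 bases before to 50 bases after a gene's start) were matched for 8 of 12 class II genes, with none for H2-Ab1, Ciita, Cd74 and H2-Ea-ps. The letters TGATTGG, the Y box with an inverted CCAAT core, stood in 7 of these 8 genes, the exception being H2-DMa, and in 7.82% of the 32851 promoters of the table on either strand. The longer form CTGATTGG was found in H2-Oa, H2-Aa, H2-Eb1 and H2-Eb2, and in 4.1% of all promoters. The 67 bases around each Y box are given below 5′ to 3′ on the gene's strand, with the Y box in capitals near the right end and the X box core CNNGNAAC in capitals further left where it was found.
H2-Aa (chr17:34287852-34287918, minus strand): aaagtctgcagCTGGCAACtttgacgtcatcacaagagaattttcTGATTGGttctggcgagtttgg
H2-Eb1 (chr17:34305761-34305827, plus strand): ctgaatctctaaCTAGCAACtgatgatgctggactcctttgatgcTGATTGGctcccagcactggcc
H2-DMb1 (chr17:34153083-34153149, plus strand): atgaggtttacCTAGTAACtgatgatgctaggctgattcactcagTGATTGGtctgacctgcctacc
H2-DMb2 (chr17:34145112-34145178, plus strand): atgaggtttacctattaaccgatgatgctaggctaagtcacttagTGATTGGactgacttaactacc
H2-Oa (chr17:34092289-34092355, plus strand): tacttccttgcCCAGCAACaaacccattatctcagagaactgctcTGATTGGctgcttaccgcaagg
H2-Ob (chr17:34238801-34238867, plus strand): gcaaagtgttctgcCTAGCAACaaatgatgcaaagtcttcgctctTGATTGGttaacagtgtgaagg
H2-Eb2 (chr17:34325528-34325594, plus strand): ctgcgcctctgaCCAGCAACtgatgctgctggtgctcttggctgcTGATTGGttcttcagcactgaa

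The Y box began 45 to 102 bases before the annotated start. The X box core was present in 6 of the 7 windows, and its first base lay 31 to 34 bases before that of the Y box. By itself the core is common, since CNNGNAAC occurred on either strand in 39.1% of all promoters. These shorter forms of both boxes were chosen after the sequences were seen. The stricter X form CCNNGNAAC was found upstream of the Y box in H2-Oa, H2-DMb1 and H2-Ob and also in the promoter of H2-DMa, and in 15.1% of all promoters. A match of letters is a description of the sequence only.

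Library totals ran from 82850628 to 92860628 counts and overlapped between the groups. Setd5 itself was lower in each heterozygous library (68.7 to 75.3 CPM, counts per 1e+06 of effective library size) than in any wild type library (97.0 to 111 CPM), although its adjusted p of 0.258 in edgeR's quasi-likelihood test did not pass 0.05. Cortical excitatory markers marked the tissue, with Slc17a7, the vesicular glutamate transporter, and the transcription factor Tbr1 present in every library. Wild type replicate 2 stood apart from the other libraries in the class II genes, as described next, and also in several other genes given further on, so results are given with and without it.

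The invariant chain Cd74 (chromosome 18, 60803848 to 60812652, plus strand) measured 1.38, 1.09 and 1.27 CPM in heterozygous replicates 1 to 3 and 1.31, 4.12 and 1.12 CPM in wild type replicates 1 to 3. Wild type replicate 2 was high, and the other 5 libraries lay close together with overlapping groups. Counting error does not span that gap, as the exact Poisson 95% interval was 3.71 to 4.57 CPM in wild type replicate 2 and reached no higher than 1.64 CPM elsewhere. Reads carry no molecular identifiers, so such intervals cover counting error only. They, and the counting errors given below, take each count as independent. Several genes with few counts had even counts in every library, such as H2-DMb2 (12, 18, 26, 12, 26 and 10). Others, Cd74 among them, had odd counts too. If both reads of a fragment were counted, which was not tested, the intervals are too narrow.

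H2-Aa, the alpha chain of the I-A molecule (chromosome 17, 34282744 to 34287823, minus strand), was at 0.609, 0.400 and 0.593 CPM in the heterozygous and 0.781, 2.98 and 0.749 CPM in the wild type libraries. H2-Ab1, its beta chain partner (34257689 to 34269419, plus strand), was at 0.348, 0.327 and 0.330 CPM against 0.627, 1.89 and 0.522 CPM. H2-Eb1, the beta chain of the I-E molecule (34305867 to 34316674, plus strand), was at 0.685, 0.558 and 0.483 CPM against 1.05, 2.70 and 0.794 CPM. In these 3 chain genes each heterozygous library lay below each wild type library, and wild type replicate 2 lay far above the other wild type libraries. For H2-Ab1 the heterozygous libraries, with 27 to 32 counts each, varied by 3.38% (coefficient of variation), less than the 18.4% that counting alone would give, while the wild type libraries varied by 75.1%.

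H2-DMa, the alpha subunit of the peptide editor (34119541 to 34139101, plus strand), was the steadiest member. It measured 13.6, 13.5 and 13.03 CPM in the heterozygous and 13.8, 12.9 and 13.4 CPM in the wild type libraries, with no library set apart. Its spread of 2.44% and 3.50% was near the counting error of 2.90% and 2.93%. In the annotation 10.4% of its exonic bases are shared with exons of Brd2, a bromodomain gene on the opposite strand, and the library kit does not mark strand, so reads there cannot be told apart.

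H2-DMb1, the beta subunit (34153072 to 34160230, plus strand), was at 0.305, 0.400 and 0.879 CPM against 0.532, 1.03 and 0.624 CPM. The groups overlapped, with heterozygous replicate 3 and wild type replicate 2 on top. Its neighbour H2-DMb2 is a close copy: transcripts of the pair were 94.8% identical over 1211 aligned bases, and 26.6% of the 50-base windows of H2-DMb1 occurred exactly in H2-DMb2. The division of reads between these copies is therefore uncertain.

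Ciita (chromosome 16, 10480059 to 10528418, plus strand) measured 2.19, 2.64 and 2.71 CPM in heterozygous and 3.63, 2.36 and 2.68 CPM in wild type cortex. Here wild type replicate 1 was high, and replicate 2, the library with the most class II chain transcript, was the lowest of its group. The ratio of Cd74 to Ciita was 1.75 in that library and between 0.362 and 0.632 in the other 5. Of the exonic bases of Ciita 3.45% are shared with Dexi on the opposite strand.

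**Figure D1:**
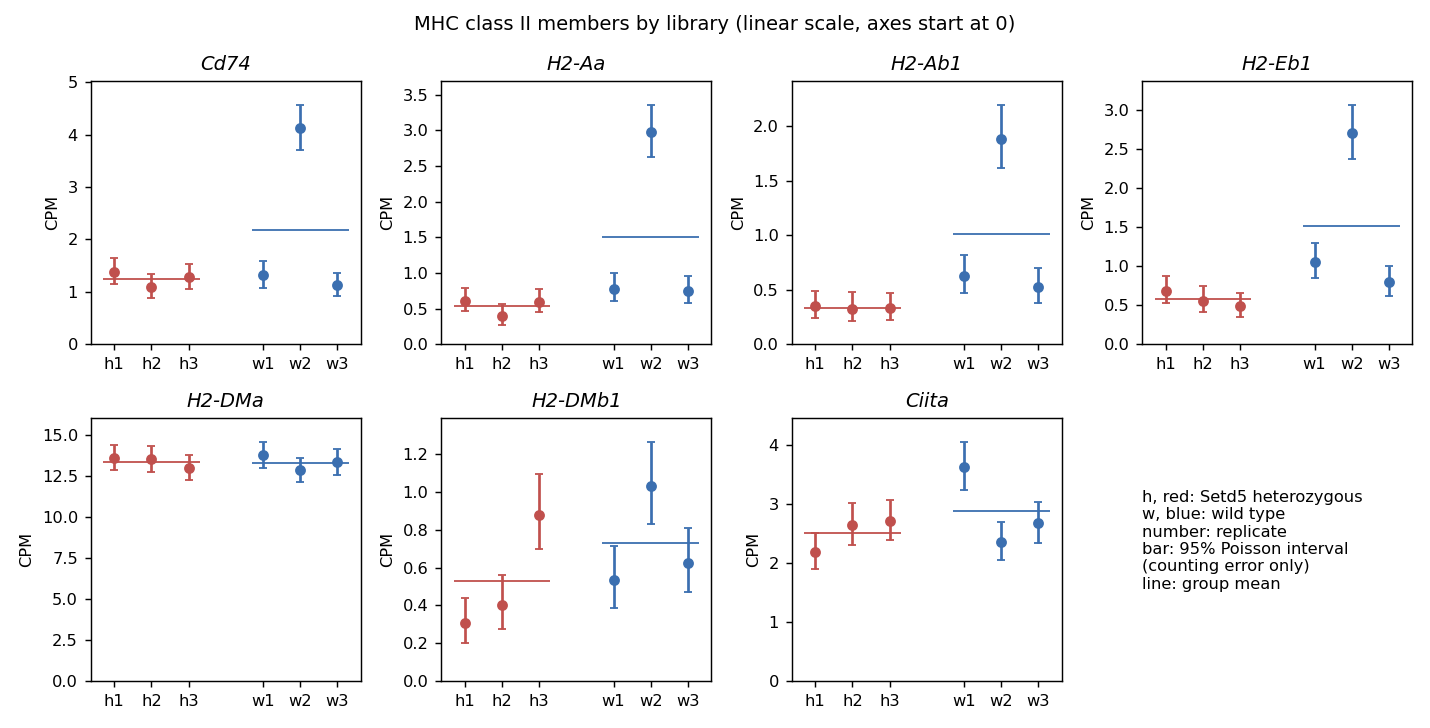
CPM of each class II member on a linear axis from 0 in each of the 6 libraries (red, heterozygous; blue, wild type), with 95% Poisson intervals and a line at each group mean. Cd74 and the 3 chain genes peak in wild type replicate 2, at 1.89 to 4.12 CPM, whereas H2-DMa stays between 12.9 and 13.8 CPM and Ciita is highest in wild type replicate 1.

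Summed over Cd74, H2-Aa, H2-Ab1 and H2-Eb1, the level was 11.7 CPM in wild type replicate 2 and 2.38 to 3.77 CPM in the other 5 libraries, so that single library held 43.7% of the total over all 6. For the 3 chains alone it was 7.56 CPM against 1.29 to 2.46 CPM, a share of 46.0%. Over all 7 members the sum was 19.0 to 19.3 CPM in the heterozygous and 19.8 to 27.9 CPM in the wild type libraries, and wild type replicate 2 held 22.0%, because H2-DMa, which did not follow the other genes, makes up most of the sum. The heterozygous mean of the 4 genes was 43.4% of the wild type mean, and 77.4% of the mean of wild type replicates 1 and 3.

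Per kilobase of exon the members kept a wide range of levels. In heterozygous cortex H2-DMa stood at 3.89 ± 0.0947 CPM per kb (SD, n = 3) and Cd74 at 0.744 ± 0.0873. H2-DMb1 (0.314 ± 0.183), H2-Eb1 (0.296 ± 0.0525) and Ciita (0.264 ± 0.0300) followed and their libraries overlapped. H2-Aa (0.141 ± 0.0306) and H2-Ab1 (0.130 ± 0.00442) came last and also overlapped. In wild type cortex the order was H2-DMa (3.87 ± 0.135), Cd74 (1.30 ± 1.00), H2-Eb1 (0.779 ± 0.531), H2-DMb1 (0.434 ± 0.159), H2-Aa (0.395 ± 0.336), H2-Ab1 (0.394 ± 0.296) and Ciita (0.303 ± 0.0695). Only H2-DMa was separated from its neighbour there, since the libraries of every other adjacent pair overlapped. Exon length here joins all annotated isoforms, which understates genes with many of them, such as Ciita.

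Between genotypes, 6 of the 7 members had a fitted level below wild type and H2-DMa one marginally above, while 50.1% of all tested genes were below. The median log2 difference (heterozygous minus wild type) of the members was -0.81, beside -0.00053 for all genes tested. In edgeR's quasi-likelihood test with Benjamini-Hochberg adjustment over all genes, 0 members passed 0.05, and 0% of all genes did. At an unadjusted p under 0.05 there were 3 members, all lower, against 3.38% of all genes lower and 5.83% in either direction. In the same 3 every heterozygous library was below every wild type library, which held for 5.85% of all tested genes.

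These 3 were the chain genes. H2-Ab1 had a log2 difference of -1.59 with a standard error (SE) of 0.48 and an adjusted p of 0.797. H2-Aa had -1.49 (SE 0.52, adjusted p = 0.828) and H2-Eb1 -1.39 (SE 0.43, adjusted p = 0.797). With library genotypes permuted exactly (two-sided), CPM gave p = 0.1 for each, the smallest that 3 libraries against 3 can give. Cd74 had -0.81 (SE 0.44), H2-DMb1 -0.47 (SE 0.42), Ciita -0.20 (SE 0.19) and H2-DMa 0.0061 (SE 0.079), with adjusted p from 0.864 to 0.994 in the same edgeR test. The sign of the H2-DMa value turned to -0.0053 with upper-quartile scaling and to -0.010 with library totals. DESeq2 also called 0 members, with 0.222% of all genes called, and gave its smallest adjusted p among them to H2-Eb1 (0.134) and H2-Ab1 (0.135). The likelihood ratio test of edgeR called 0 members and 0.104% of all genes, limma-voom with quality weights 0 members and 0.00716%, and the fit of every gene with at least 1 count 0 members and 0.0142%.

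Without wild type replicate 2 the members parted. Cd74 went to 0.034 (SE 0.22), so its difference between genotypes rested on that library. The chain genes stayed below wild type at smaller size: H2-Ab1 at -0.78 (SE 0.32), H2-Eb1 at -0.68 (SE 0.28) and H2-Aa at -0.52 (SE 0.30), with edgeR adjusted p from 0.551 to 0.626. Of the members 0 passed, and 0.00697% of all genes did. At an unadjusted p under 0.05 there were then 2 members, H2-Ab1 and H2-Eb1, against 8.89% of all genes tested. In CPM the heterozygous means were 58.3% of the mean of wild type replicates 1 and 3 for H2-Ab1, 62.3% for H2-Eb1, 69.9% for H2-Aa and 103% for Cd74. H2-DMb1 went to -0.13 (SE 0.46). Ciita moved the other way, to -0.33 (SE 0.19), and without wild type replicate 1 it was -0.0013.

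**Figure D2:**
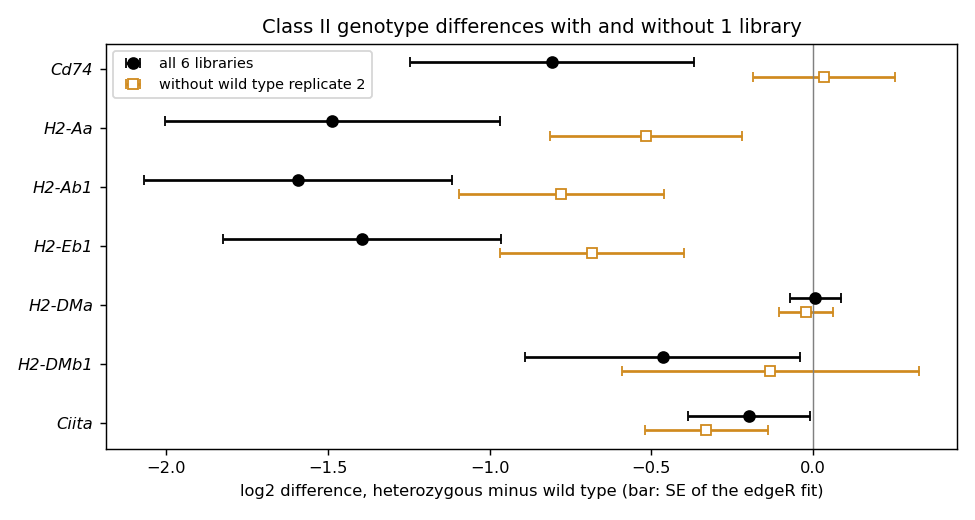
Log2 difference, heterozygous minus wild type, of each class II member with its SE in edgeR, from all 6 libraries (black circles) and without wild type replicate 2 (open orange squares). Cd74 moves from -0.81 to 0.034, the 3 chain genes lie nearer to 0 but stay below it, and H2-DMa lies close to 0 in both fits.

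Cd74 and the chains therefore did not keep one ratio across libraries. The ratio of Cd74 to H2-Ab1 counts was 3.97, 3.33 and 3.87 in the heterozygous and 2.09, 2.18 and 2.15 in the wild type libraries, wild type replicate 2 included. The groups did not overlap. The exact 95% intervals, which cover counting error only, were apart for heterozygous replicate 1 (2.68 to 6.05) and wild type replicate 2 (1.82 to 2.64). They overlapped in every other pair of a heterozygous and a wild type library. That gap is narrow and may not hold if counts are not independent. The ratio of H2-Aa to H2-Ab1 ran from 1.22 to 1.80 with overlapping groups.

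The other class II chains of the same region differed among themselves. H2-Oa and H2-Ob form DO, a modulator of DM known from B cells. H2-Oa was at 0.305, 0.327 and 0.352 CPM in heterozygous and 0.355, 0.494 and 0.465 CPM in wild type cortex, a log2 difference of -0.42 (SE 0.30). H2-Ob was highest in heterozygous replicate 3, at 1.00 CPM, and between 0.446 and 0.619 CPM in the other libraries, with 0.40 (SE 0.33). H2-DMb2 was between 0.113 and 0.292 CPM with overlapping groups, at 0.21 (SE 0.51). H2-Eb2 had 8 counts in heterozygous replicate 3 and 0 in every other library. H2-Ea-ps, annotated as a polymorphic pseudogene of the I-E alpha chain, had 0 counts in all 6. With independent counts this allows up to 0.0326 to 0.0364 CPM per library. Of the 3 tested in this list 1 was below wild type and 0 passed the edgeR test.

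Along the chromosome wild type replicate 2 stood highest, relative to the mean of replicates 1 and 3, at neighbouring chain genes. That library was at 3.29 for H2-Ab1, 3.89 for H2-Aa and 2.92 for H2-Eb1, which lie next to each other among the listed genes. H2-Eb2 and H2-Ea-ps, which lie beyond them, had 0 counts in it. Cd74, on chromosome 18, was at 3.38. For H2-Ob, next to H2-Ab1, the value was 0.889, for H2-DMa 0.948 and for H2-Oa 1.21. H2-DMb1 stood at 1.79, with 92 counts in wild type replicate 2, and H2-DMb2 at 2.29, on only 26 counts there. Among genes of class I processing that lie in the same stretch, the immunoproteasome subunits Psmb9 and Psmb8 were at 1.64 and 1.27, and the peptide transporter subunits Tap1 and Tap2 at 1.38 and 0.795. Tap2 and Psmb8 were named for their position, after values were seen. All 5 class I genes listed, Tapbp included, had fitted levels below wild type and 0 passed; Tap1 had -0.78 (SE 0.23) and Tapbp, the tapasin gene, -0.17 (SE 0.084).

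**Figure D3:**
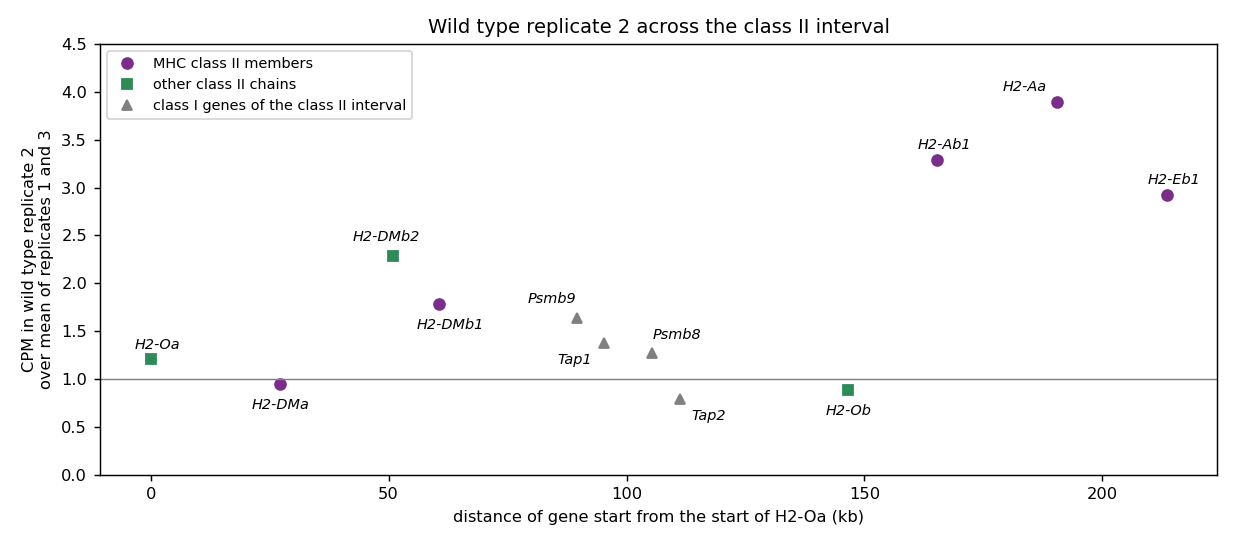
Level in wild type replicate 2 relative to the mean of wild type replicates 1 and 3 (linear axis from 0), against the distance of each gene's start from that of H2-Oa in kb, for members (circles), other class II chains (squares) and class I genes of the interval (triangles). H2-Ab1, H2-Aa and H2-Eb1 stand at 2.92 to 3.89, while H2-Ob, H2-DMa and Tap2 stand below 1.

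Upstream of the class II genes, the factors that sit on the X and Y boxes and their cofactors differed little between genotypes. Of 10 genes 7 had fitted levels below wild type and 0 passed the test or stood at an unadjusted p under 0.05, with a median of -0.018. Rfx5, an RFX subunit, had -0.14 (SE 0.080), Rfxank, another subunit, -0.10 (SE 0.077), and Rfxap, the third, 0.093 (SE 0.078).

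The interferon gamma axis, the known inducer of Ciita, was measured through 9 genes. The cytokine gene Ifng had no count in any heterozygous library and at most 0.0473 CPM in a wild type one, and it was too low to test; it is named for its role. Of 8 genes tested 6 were below wild type and 0 passed, with a median of -0.13. Socs1, a feedback inhibitor, had -0.34 (SE 0.24) and Ifngr1, a receptor chain, -0.12 (SE 0.081).

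Genes that process the antigen or carry class II molecules lay on both sides of wild type. Of 10 tested, 6 were below wild type and 0 passed, with a median of -0.0047. Ctss, the cathepsin that trims the invariant chain, named for that role, had -0.0051 (SE 0.082). Sppl2a, the protease that clears its remnant, had -0.12 (SE 0.057), Mif, a ligand of Cd74, -0.22 (SE 0.11), and Cd44, its signalling partner, -0.24 (SE 0.13). Among 6 co-stimulatory genes 3 were below wild type and 0 passed (median -0.022). Cd86, a ligand of T cell CD28, had -0.13 (SE 0.18) and Cd40, the receptor through which T cells act back on the presenting cell, -0.29 (SE 0.41). Icosl lay above wild type, at 0.13 (SE 0.19).

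Markers of cells that can carry class II were set beside the members, since in bulk tissue fewer cells of a type and less RNA per cell cannot be told apart. Border macrophage markers were below wild type in 8 of 8 genes, with summed levels of 21.6 to 23.7 CPM in heterozygous and 22.2 to 33.8 CPM in wild type libraries. Their sum was highest in wild type replicate 1, at 33.8 CPM. Replicate 2 followed at 31.0 CPM, and replicate 3 was at 22.2 CPM. Mrc1, the mannose receptor, was at 6.60, 7.76 and 7.83 CPM against 11.6, 12.3 and 6.67 CPM. Ms4a7, a membrane protein of these macrophages, was at 0.413, 0.291 and 0.198 CPM against 0.639, 0.775 and 0.431 CPM and had -1.03 (SE 0.37). Microglia markers were also below in 8 of 8, with sums of 349.6 to 384 CPM against 384 to 420.3 CPM; Tmem119 had -0.22 (SE 0.086) and C1qa, a complement subunit, -0.22 (SE 0.080). Of both lists 0 genes passed the edgeR test.

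Dendritic cell markers gave no single picture. Of 7 tested 5 were below wild type, while the sum, set mostly by Flt3 and Zbtb46, was 19.5 to 21.0 CPM in heterozygous and 16.7 to 22.9 CPM in wild type libraries. Flt3, a growth factor receptor, was lowest in wild type replicate 2, at 4.75 CPM, and between 7.20 and 8.53 CPM in the heterozygous libraries, with 0.36 (SE 0.17). Of the 10 markers 5 were highest in wild type replicate 2, the top library of 17.9% of all tested genes. Zbtb46, Clec9a, Clec10a and Ccl22 were highest in wild type replicate 1. Cd209a, a lectin of monocyte-derived dendritic cells, was at 0.247 CPM in wild type replicate 2 and between 0.0485 and 0.0946 CPM in the others. The integrin Itgax was at 0.270 CPM there and at most 0.166 CPM elsewhere, and the chemokine receptor Xcr1 at 0.135 and at most 0.087 CPM. Among 6 monocyte markers 3 were highest in wild type replicate 2. Ccr2, their chemokine receptor, was at 0.854 CPM in wild type replicate 2 and between 0.204 and 0.379 CPM elsewhere, and the monocyte sum was 3.51 to 5.52 CPM against 3.49 to 7.13 CPM. Plac8 and Chil3 were at 0 in wild type replicate 2, and Fcgr4 was highest in heterozygous replicate 2. Itgax, Xcr1 and Cd209a, with 24, 12 and 22 counts in wild type replicate 2, were too low to test. These 3, Ccr2, Plac8, Chil3 and Fcgr4 were singled out after their values were seen.

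Several lymphocyte markers were too low to test. Of 8 B cell markers 4 could be tested, with 3 below wild type. Their sum of 30.8 to 44.4 CPM against 34.7 to 44.3 CPM came almost wholly from Ighm, the heavy chain of immunoglobulin M. Among T cell markers the receptor chain genes Cd3d and Cd3g, named as defining markers, were at 0 in 2 and 3 of the heterozygous libraries and in 1 each of the wild type libraries. Cd3e, another chain, is also outside the rule by which genes were named. It had 0, 4 and 12 counts in the heterozygous and 3, 0 and 3 counts in the wild type libraries. Of 8 T cell genes 3 were tested and 2 were below wild type. The sum of 1.95 to 6.08 against 2.51 to 15.1 CPM was set by Cd4, at 13.5 CPM in wild type replicate 3. Cd3d, Cd3e and Cd3g were at 0.0454, 0.0340 and 0 CPM there, so the sum reports Cd4 and not the T cell list as a whole.

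Markers of the coverings, and some of the vessel walls, were also high in wild type replicate 2. The meningeal fibroblast sum was 188.6 CPM there, 143 and 90.6 CPM in wild type replicates 1 and 3, and 83.8 to 98.2 CPM in heterozygous libraries. All 8 markers were below wild type, 7 of them at an unadjusted p under 0.05, and 7 of 8 were highest in that library, which was the top library of 17.9% of all tested genes; the GABA transporter Slc6a13 was at 10.4 CPM there. The exception was Col1a1, a collagen chain, at 8.75 CPM there and higher in wild type replicate 1. For pericytes and smooth muscle the marker sum was 104 CPM in replicate 2 and 76.9 and 81.8 CPM in the other wild type libraries. It was 60.8 to 65.1 CPM in heterozygous ones. All 6 markers were below wild type, 4 of them at an unadjusted p under 0.05 in the edgeR test. Vtn, Acta2 and Myh11 were highest in replicate 2, whereas Pdgfrb, Kcnj8 and Abcc9 were lower there than in the other wild type libraries; Myh11 and Kcnj8 were named after their values were seen. Endothelial markers had 5 of 6 below, and sums of 124 to 128 CPM against 133 to 141 CPM, with wild type replicates 1 and 2 alike. Of these, 4 were lower at an unadjusted p under 0.05 in the edgeR test, beside 3.38% of all tested genes. In 4 endothelial and 4 pericyte and smooth muscle markers every heterozygous library was below every wild type library, replicates 1 and 3 included. That held for 5.85% of all tested genes. Neutrophil markers summed to 0.670 to 1.12 CPM against 1.16 to 1.28 CPM, red blood cell markers to 21.3 to 23.7 CPM against 24.2 to 30.4 CPM, and choroid plexus markers to 3.79 to 7.76 CPM against 4.87 to 11.4 CPM. In the edgeR test 0 genes of these lists passed. The part of any of these cells in the class II values was not tested.

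**Figure D4:**
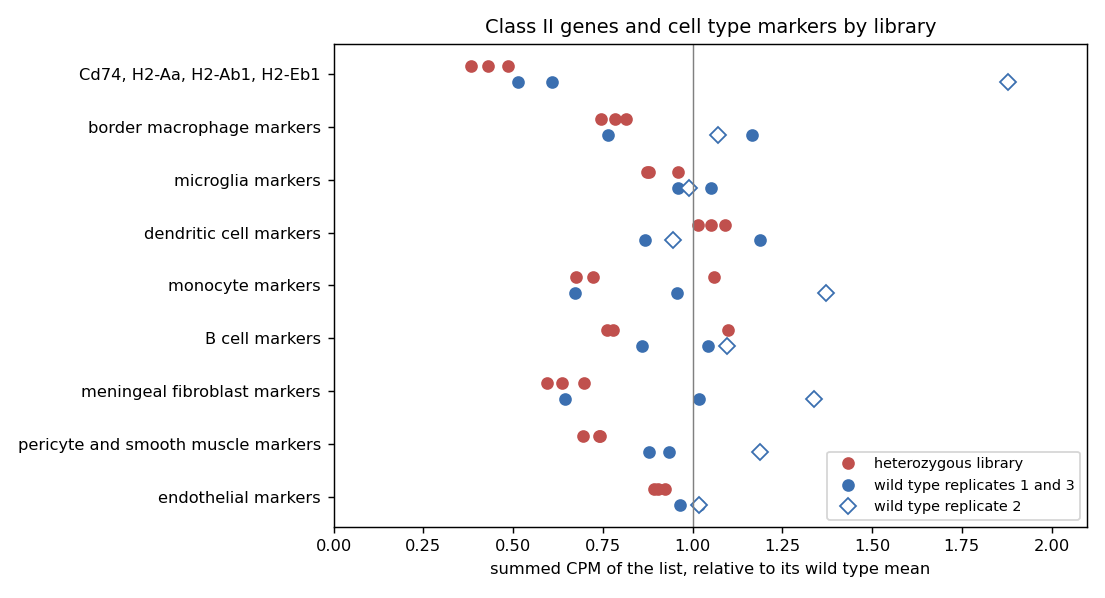
Summed CPM of Cd74, H2-Aa, H2-Ab1 and H2-Eb1 and of 8 marker lists in every library, divided by the wild type mean of that sum (linear axis from 0; red, heterozygous; filled blue, wild type replicates 1 and 3; open diamond, wild type replicate 2). The diamond stands farthest from the other libraries for the class II genes. It is the highest wild type library for the sums of monocyte, meningeal fibroblast, pericyte and B cell markers, level with replicate 1 for endothelial ones, but not for border macrophage, microglia or dendritic cell markers.

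The profile of the 4 peak genes over the libraries (mean log2 CPM, centred on the wild type mean) was compared with that of 16091 other genes with a mean of at least 0.2 CPM. Likeness was measured as the root-mean-square difference over the 6 libraries, for which the median gene had 0.97. The nearest was Fgl2, a fibrinogen-like protein with immune-regulating functions, at 0.10. It measured 2.08, 1.72 and 1.83 CPM in heterozygous and 2.58, 7.62 and 2.37 CPM in wild type libraries, so wild type replicate 2 was again high and the other 5 were close. Then came Fbln5, an elastic fibre protein (0.26), Retnla, a resistin-like secreted protein (0.30), Irgm2 (0.34) and Iigp1 (0.36), both interferon-inducible GTPases, Acta2, smooth muscle actin (0.37), Ifi47, a further GTPase of that kind (0.38), and Aoah, an enzyme that inactivates endotoxin (0.38). For comparison H2-DMb1 was at 0.69, Ciita at 0.96 and H2-DMa at 0.97.

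Iigp1 was at 0.718, 0.970 and 1.00 CPM in heterozygous and 1.79, 5.38 and 1.49 CPM in wild type libraries. Acta2 was at 6.81, 6.02 and 5.77 CPM against 6.41, 18.8 and 6.33 CPM. Both peaked in wild type replicate 2, but only in Iigp1 were the heterozygous libraries also below the other wild type ones. The 8 genes share these libraries and their depth with the members, and were picked for likeness, so their values are a description.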

How the data were processed

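Each library has 1 deposited table of unnormalized read counts by gene. Per the submitters' processing notes the authors' builds were mm10 and GRCm38.p6 and their tools included Bowtie2 2.3.4.3, featureCounts, DESeq2 and FastQC; settings are not stated there. Per the labels' protocols, RNA was extracted with Trizol, treated with DNase I and prepared with TruSeq RNA Library Prep Kit v2. All 55450 identifiers matched GENCODE M21 (GRCm38). Counts were filtered with filterByExpr (minimum count 10, total 15), scaled by TMM and tested with the quasi-likelihood test of edgeR 4.0.16 in R 4.3.3, without covariates, with Benjamini-Hochberg adjustment over 27939 genes. The code was tested on simulated data. Identity between gene copies was computed on transcripts. The alternatives were DESeq2 1.42.0, limma-voom (limma 3.58.1) with and without quality weights, a likelihood ratio test, other scalings and filters, and each library left out. The members, gene lists and tests were chosen with earlier results of these data known. Genes were named by rule: all members, other class II chains and up to 3 genes per list by smallest p. The rule also takes markers of antigen-presenting cells by library and the 8 genes nearest in profile. Genes measured outside the rule are said to be so in the text, apart from Setd5 and the cortical markers Slc17a7 and Tbr1. Some genes that the rule takes are left out here. Promoters came from RefSeq. Of 22 lists, 15 hold cell type markers; cortical neuron genes had 5 of 6 members above wild type, astrocyte genes 6 of 6 below and oligodendrocyte genes 6 of 6 above, with 0 passing.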

Additional observations from a re-analysis of the deposited data

How the results depend on the processing

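Of the class II members 0 were called in any of the 15 alternatives; at 1 CPM in 3 libraries only 3 could be tested. The count of all genes called, 0 by edgeR's quasi-likelihood test (1628 at an unadjusted p under 0.05), was 62 in DESeq2, 29 in the likelihood ratio test, 6 with every gene of at least 1 count, 2 in limma-voom with quality weights, and 0 to 2 with a library left out, the 2 without wild type replicate 2. H2-Aa, H2-Ab1, H2-Eb1 and H2-DMb1 were below wild type in all 14 alternatives that tested them, and Ciita in 15. Cd74 ran from -1.12 to 0.034 with a library left out and was above 0 only without wild type replicate 2. H2-DMa turned to -0.0053 (upper quartile), -0.010 (library totals) and -0.0040 (every gene of at least 1 count), and ran from -0.023 to 0.032 with a library left out. The summed level of the 7 members in heterozygous cortex, 82.6% of wild type, was 77.0% to 92.0% with a library left out, and 58.3% without H2-DMa, an alternative chosen after seeing the data. The share of that sum in the highest library, 22.0%, was 22.0% to 26.6% with a library left out, 20.4% without Cd74 and 32.3% without H2-DMa. With a library left out the share is taken over fewer libraries, which by itself raises it. Without wild type replicate 2 it was 22.0%, and wild type replicate 1 was then the highest library. No paired analysis was possible because the replicate numbers used here only follow the order of the records, and the labels tie no heterozygous library to a wild type one.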
